A study of Homo sapiens with 18 samples.

Results

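Antisense RNAs and the genes they are named for were followed across a SMARCA2 degrader time course in NCI-H1693 cells. This established line was derived from a human lung tumour of non-small cell type and is SMARCA4-deficient according to its labels. Members were chosen by level: a member is a row of the count table whose symbol ends in -AS1 and whose mean level over the 18 libraries was at least 1 CPM (counts scaled to the library's total). The table has 43236 symbols, of which 1475 end in -AS1, and 241 of these met the rule. Of the other 1234, 467 had no count in any library. The sense gene of a member is the symbol before -AS1. All 241 sense genes were in the table, and 240 of them are annotated as protein-coding. The rule used only the overall level, with the libraries of treated cells included. An RNA high in some groups only could thus pass through them. NR2F2-AS1, MIDEAS-AS1 and UGDH-AS1 lay just inside the rule at 1.01 CPM, and KIF9-AS1 (0.976 CPM), NDUFB2-AS1 (0.967 CPM), MIA2-AS1 (0.967 CPM) and DNAJC27-AS1 (0.942 CPM) lay just outside.

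Cells received 50 nM PRT3789, a degrader selective for SMARCA2, or DMSO, the solvent alone, for 6, 48 or 72 h. Each of the 6 groups (PRT3789 and DMSO at each time) has 3 libraries of polyadenylated RNA from a strand-specific kit. All groups share the one cell line and its SMARCA4 deficiency. The labels do not say whether the 3 libraries of a group came from separate cultures, so every p below measures only the spread between these libraries, which may be technical.

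A natural antisense RNA is transcribed from the strand opposite a gene, and often from the same stretch of open chromatin as that gene's promoter. Many are long non-coding RNAs that stay in the nucleus, some influence the neighbouring gene in cis, and others act elsewhere or have no known role. Either SMARCA2 or SMARCA4 serves as the motor of a SWI/SNF (BAF) chromatin remodelling complex, and these complexes keep enhancers and promoters accessible to transcription factors, so that a line lacking one can depend on the other.

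Library totals ran from 23154484 to 31094797 counts, and 16291 genes passed the filter on low counts, including all 241 antisense RNAs and 222 of the sense genes. KRT8 and KRT18, the keratins of simple epithelia, were abundant in every library (1758 CPM or more for KRT8 and 1291 CPM or more for KRT18), but lower in PRT3789 at the late times. At 72 h KRT8 averaged 1811 CPM in PRT3789 and 4634 CPM in DMSO, and KRT18 averaged 1325 CPM in PRT3789 and 3576 CPM in DMSO. The sum of 5 epithelial markers, mostly made up of these keratins, ran from 4115 to 4330 CPM in PRT3789 and from 9147 to 9900 CPM in DMSO. The other markers in the sum differed among themselves. KRT19 averaged 333 CPM in PRT3789 and 318 CPM in DMSO, EPCAM 567 and 594 CPM, and CDH1 167 and 332 CPM. The globin gene HBB was at 0. Of the blood, endothelial and fibroblast markers checked, LUM (61.5 to 128 CPM) and CD68 (3.27 to 15.1 CPM) were the only ones above 5 CPM in any library. At 72 h LUM averaged 82.9 CPM in PRT3789 and 100.02 CPM in DMSO, CD68 averaged 3.58 CPM in PRT3789 and 7.22 CPM in DMSO, and CDH5 averaged 0.0232 CPM in PRT3789 and 2.84 CPM in DMSO. The part of these markers in the antisense results was not tested. In bulk RNA, fewer cells with an RNA and less of it per cell cannot be told apart. As a check of the treatment, KRT80 averaged 19.9 ± 3.23 CPM in PRT3789 and 634 ± 15.7 CPM in DMSO at 72 h (SD, n = 3 each). SMARCA2 mRNA averaged 34.8 ± 2.35 CPM in PRT3789 and 47.2 ± 2.49 CPM in DMSO at the same time; the degrader acts on the protein, so this mRNA does not measure the degradation.

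Most of the antisense RNAs were scarce. Their mean levels ran from 1.01 to 108 CPM with a median of 2.59 CPM, 179 of the 241 were under 5 CPM, and 7 were above 25 CPM. A typical library held 73 counts of a member (median), the lowest count was 1, and no member had a count of 0 in any library. Per kilobase of the canonical transcript, the sense gene was above its antisense RNA in 163 of 236 annotated pairs, with medians of 2.07 CPM per kb for the antisense RNAs and 6.59 CPM per kb for the sense genes. FGD5-AS1 was the most abundant member (91.6 CPM per kb), while FGD5, which encodes an endothelial guanine nucleotide exchange factor, was at 0.00204 CPM per kb. OIP5-AS1, also known as cyrano, was at 24.3 CPM per kb beside 22.1 CPM per kb for OIP5, a gene of centromere assembly.

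The promoters below belong to pairs that stand for the patterns described later. ELF3-AS1 and ARHGEF26-AS1 were lower together with their sense genes, PSMB8-AS1 was higher together with PSMB8, and TM4SF1-AS1 and CD63-AS1 were higher while their sense genes were lower. Each is a RefSeq window on GRCh38.p14 of 250 bases before to 50 bases after the annotated antisense start, written in the direction of the antisense RNA. Capitals mark matches, on either strand, to letters known from transcription factor sites. These were TGANTCA for AP-1 and, for IRF factors, GAAA repeated after 2 bases of any kind. The CCAAT box was searched by its own letters and the TATA box as TATAAA. ETS factors were searched as CCGGAAG, while GATA factors were given the letters AGATAA and TEAD factors the letters GGAATG. The GC box, GGGCGG, was searched as well and is left in lower case because it is so frequent. The CD63-AS1 pair was chosen for display after its values were seen, because it was the pair called in opposite directions at both 48 and 72 h. The windows lie at chr1:202010304-202010603 (minus strand, ELF3-AS1), chr3:154121161-154121460 (minus strand, ARHGEF26-AS1), chr6:32843836-32844135 (plus strand, PSMB8-AS1), chr3:149377528-149377827 (plus strand, TM4SF1-AS1) and chr12:55728844-55729143 (plus strand, CD63-AS1).
ELF3-AS1: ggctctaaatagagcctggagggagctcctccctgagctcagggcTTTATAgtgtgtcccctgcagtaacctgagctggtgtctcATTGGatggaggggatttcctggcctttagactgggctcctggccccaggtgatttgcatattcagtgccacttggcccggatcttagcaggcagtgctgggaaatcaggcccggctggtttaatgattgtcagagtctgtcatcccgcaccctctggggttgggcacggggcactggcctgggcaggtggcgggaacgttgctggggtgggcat
ARHGEF26-AS1: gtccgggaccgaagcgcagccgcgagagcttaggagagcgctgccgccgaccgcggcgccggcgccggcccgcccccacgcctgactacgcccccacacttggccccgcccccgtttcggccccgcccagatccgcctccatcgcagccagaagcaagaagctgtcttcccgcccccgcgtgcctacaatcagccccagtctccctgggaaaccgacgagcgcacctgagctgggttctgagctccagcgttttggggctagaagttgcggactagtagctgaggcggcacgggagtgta
PSMB8-AS1: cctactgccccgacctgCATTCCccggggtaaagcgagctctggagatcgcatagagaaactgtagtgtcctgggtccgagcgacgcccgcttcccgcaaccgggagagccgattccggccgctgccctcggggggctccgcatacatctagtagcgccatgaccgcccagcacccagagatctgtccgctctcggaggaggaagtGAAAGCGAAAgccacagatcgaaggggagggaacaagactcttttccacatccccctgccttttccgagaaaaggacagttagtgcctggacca
TM4SF1-AS1: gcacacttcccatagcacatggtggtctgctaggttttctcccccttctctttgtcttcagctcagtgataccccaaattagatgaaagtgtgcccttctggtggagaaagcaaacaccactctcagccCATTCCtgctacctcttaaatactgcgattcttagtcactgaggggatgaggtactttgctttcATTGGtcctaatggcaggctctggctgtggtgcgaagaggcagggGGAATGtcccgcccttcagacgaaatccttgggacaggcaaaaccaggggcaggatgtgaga
CD63-AS1: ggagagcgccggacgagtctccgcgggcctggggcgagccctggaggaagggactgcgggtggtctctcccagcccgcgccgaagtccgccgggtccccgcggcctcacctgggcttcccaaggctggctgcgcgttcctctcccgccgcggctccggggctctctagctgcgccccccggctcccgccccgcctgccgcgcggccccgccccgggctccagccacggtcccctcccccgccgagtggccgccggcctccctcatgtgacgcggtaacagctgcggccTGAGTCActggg

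In the PSMB8-AS1 window the IRF letters GAAAGCGAAA begin 44 bases before the antisense start, and TEAD letters, CATTCC, begin 233 bases before it. The nearest RefSeq start of PSMB8 lies 39 bases from the antisense start on the other strand. The TM4SF1-AS1 window holds TEAD letters at 2 places and an inverted CCAAT box, ATTGG. The CD63-AS1 window holds the AP-1 letters TGAGTCA at 38 bases past the start. The ELF3-AS1 window holds an inverted CCAAT box and an inverted TATA box, and the ARHGEF26-AS1 window holds none of the letters that are capitalised. GC boxes, on either strand, number 0 in the ELF3-AS1 window, 4 in that of ARHGEF26-AS1, 1 in that of PSMB8-AS1, 1 in that of TM4SF1-AS1 and 2 in that of CD63-AS1. Over all 27305 RefSeq windows of this length, 7.76% hold the AP-1 letters, 3.65% IRF, 35.7% CCAAT, 12% TATA, 10.7% ETS, 10.5% GATA and 14% TEAD. Over the 189 members with a window the shares are 5.29%, 2.12%, 33.3%, 5.29%, 16.4%, 5.29% and 13.2% in the same order. The GC box is held by 60.8% of the member windows and by 44.6% of all windows. These are matches of letters, and no window was tested for binding.

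At 6 h few antisense RNAs had changed. By edgeR's quasi-likelihood test, with p adjusted by Benjamini-Hochberg over all 16291 genes and called under 0.05, 6 of the 241 changed, beside 4.33% of all tested genes; 2 were higher in PRT3789 (0.83%, beside 1.28% of all tested genes) and 4 were lower (1.66%, beside 3.04%). The higher ones were GATA3-AS1 and ARHGAP5-AS1, and the lower ones CBR3-AS1, CLDN14-AS1, ELF3-AS1 and JDP2-AS1. All 6 were called in the same direction again at 48 and at 72 h. Libraries differed more at 6 h, with a median SD of log2 CPM across members of 0.223 in PRT3789 and 0.247 in DMSO, against 0.135 to 0.174 in the 48 and 72 h groups. Fitted with the 6 h libraries alone, 0 were called higher and 2 lower. The count called higher was 0 or 1 without DMSO replicate 1 or 3 or without PRT3789 replicate 1 or 3 of 6 h, and the count called lower was 2 without DMSO replicate 3 or PRT3789 replicate 1.

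At 48 h, 55 antisense RNAs were higher in PRT3789 (22.8%, beside 21.2% of all tested genes) and 22 were lower (9.13%, beside 20.9%), where 42.1% of all tested genes were called either way. At 72 h, 64 were higher (26.6%, beside 21.3%) and 20 were lower (8.3%, beside 22%), where 43.4% of all were called. The share called higher was near that of all genes at 48 h and above it at 72 h, and the share called lower was under it at both times. The median log2 fold change of the members was -0.03 at 6 h, 0.10 at 48 h and 0.19 at 72 h, beside -0.01, 0.01 and 0.01 for all tested genes. The sense genes were split more evenly: of 222 tested, 57 were higher and 41 lower at 48 h, and 55 were higher and 45 lower at 72 h, with a median log2 fold change of 0.09 at 48 h and -0.01 at 72 h. The difference between antisense RNAs and sense genes as sets was not tested.

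Counting libraries without a model gave a similar split. All 3 PRT3789 libraries lay above all 3 DMSO libraries for 73 members at 48 h (30.3%, beside 28.7% of all tested genes) and for 87 at 72 h (36.1%, beside 31.2%). They lay below for 41 members at 48 h (17%, beside 27.5%) and for 32 at 72 h (13.3%, beside 30.7%). At 6 h they lay above for 15 members (6.22%, beside 6.36%) and below for 14 (5.81%, beside 8.35%).

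**Figure D1:**
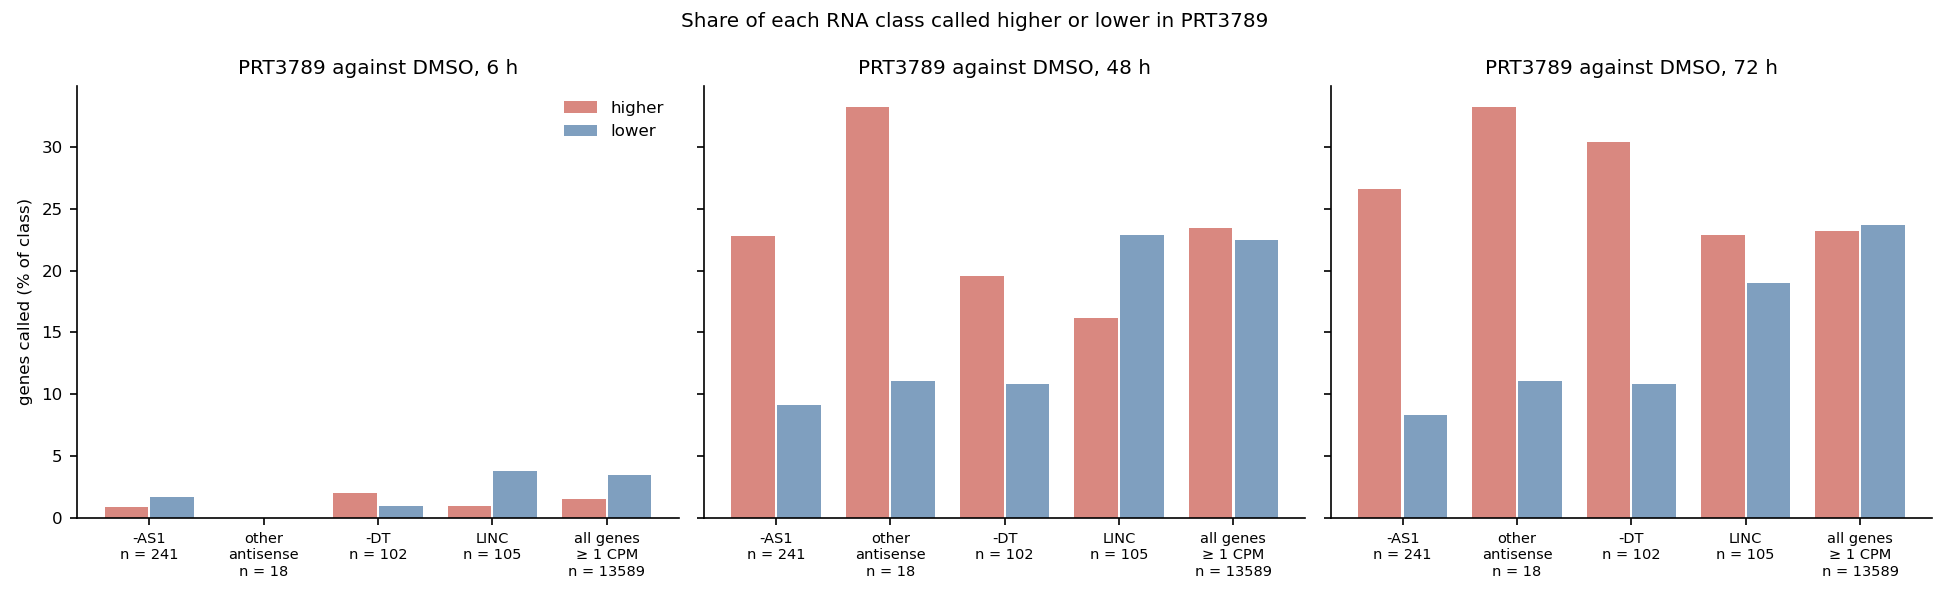
Share of each RNA class called higher (red) or lower (blue) in PRT3789 against DMSO at 6, 48 and 72 h, as percent of the tested genes of the class with a mean of at least 1 CPM (n under each name). The -AS1 bars at 72 h stand at 26.6% higher and 8.3% lower, and those of all genes of at least 1 CPM at 23.2% and 23.7%.

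Most calls recurred between the late times. Of the 101 antisense RNAs called at 48 or 72 h, 43 were higher at both and 17 were lower at both. Another 12 were called higher at 48 h only and 21 at 72 h only, while 5 were called lower at 48 h only and 3 at 72 h only, and none was called in opposite directions. The remaining 140 were called at neither time. The effect itself differed between 48 and 6 h for 29 members, beside 19.2% of all tested genes, 19 with a more positive effect at 48 h (7.88%, beside 8.83% of all tested genes) and 10 with a more negative one (4.15%, beside 10.4%). Between 72 and 48 h the edgeR test called 0 members and 0 genes in all (0%), with 15 members at an unadjusted p under 0.05 (6.22%, beside 9.06% of all genes). DESeq2 called 1 member (0.415%, beside 0.583% of all genes) and limma-voom called 0.

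Where both the antisense RNA and the sense gene of a pair were called, they mostly moved in the same direction. At 48 h, 34 of 222 pairs were called in the same direction (21 higher, 13 lower) and 4 in opposite directions. At 72 h, 36 were called in the same direction (25 higher, 11 lower) and 7 in opposite directions. All 4 and all 7 opposite pairs had a higher antisense RNA and a lower sense gene. The antisense RNA alone was called in 33 pairs at 48 h and 34 at 72 h, the sense gene alone in 60 and 57, and neither in 91 and 88. For scale, 22.8% of the members were called higher and 9.13% lower at 48 h, and 26.6% and 8.3% at 72 h. Of the tested sense genes, 25.7% were called higher and 18.5% lower at 48 h, and 24.8% and 20.3% at 72 h. The pair counts were not tested against those that such shares alone would give. At 6 h both were called, in the same direction, in 2 pairs, and 203 pairs had no call. That count of 2 was 0 without DMSO replicate 3 or PRT3789 replicate 1 of 6 h, and 1 without any one of DMSO replicate 1 or PRT3789 replicate 2 or 3 of 6 h, DMSO replicate 3 or any PRT3789 library of 48 h, or DMSO replicate 2 or PRT3789 replicate 1 of 72 h. Across the 222 pairs the log2 fold changes of antisense RNA and sense gene had a Spearman correlation of 0.22 at 6 h, 0.34 at 48 h and 0.34 at 72 h, and Pearson's r of 0.26, 0.54 and 0.57. Both partners of a pair come from the same libraries and the points are genes, so these values are descriptions. The signs matched in 61.7% of pairs at 48 h and in 58.6% at 72 h.

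**Figure D2:**
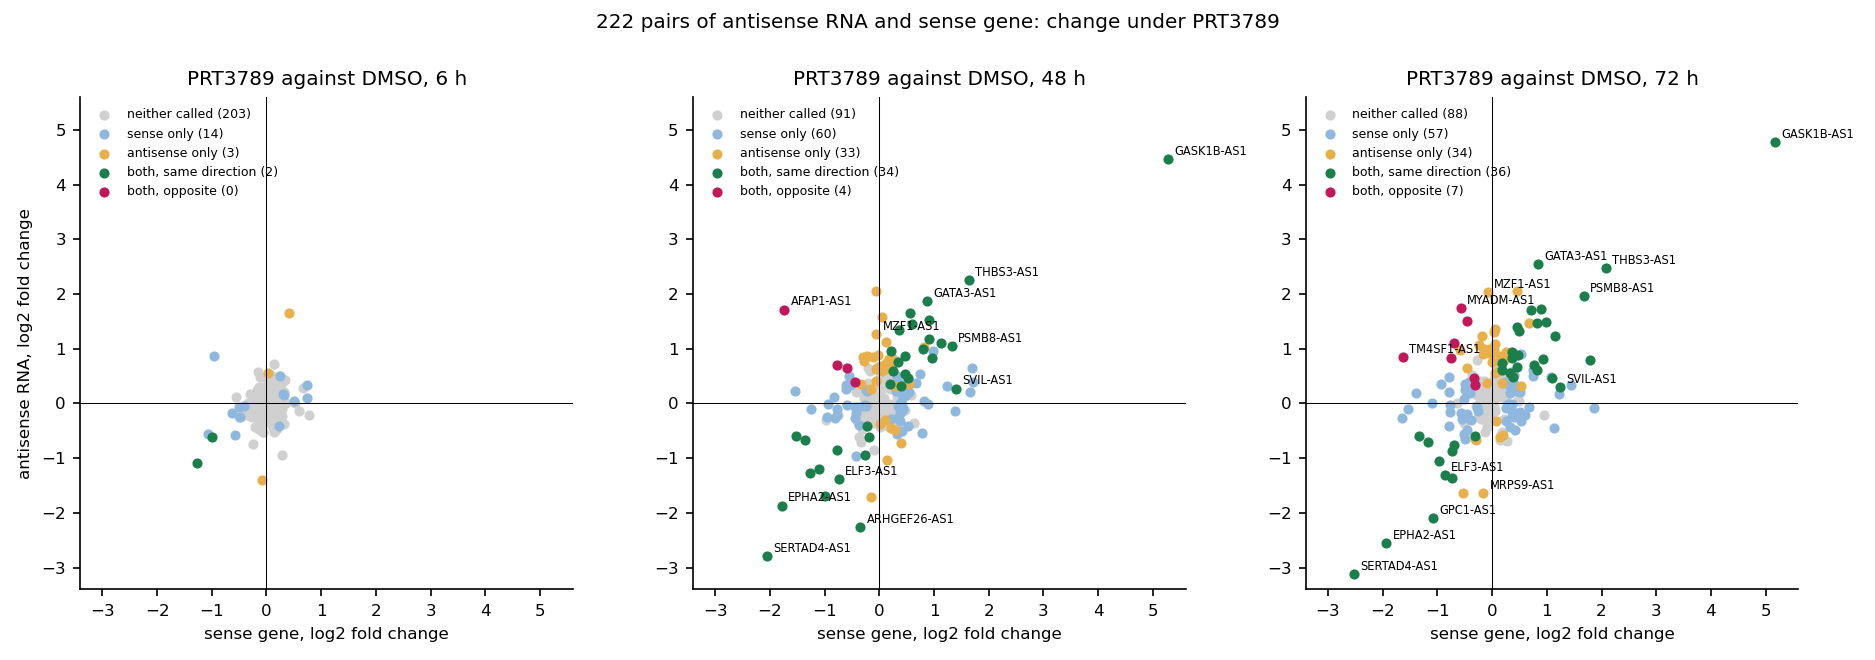
Log2 fold change of the antisense RNA (vertical axis) against that of its sense gene (horizontal axis), PRT3789 against DMSO, for 222 pairs at 6, 48 and 72 h, coloured by which partner was called, with pair counts in each legend. GASK1B-AS1 lies far up and to the right at both late times, SERTAD4-AS1 and EPHA2-AS1 lie down and to the left, and the opposite pairs lie at the upper left.

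Among the pairs that were lower together, SERTAD4-AS1 (chr1:210231456-210234047, minus strand, GENCODE 44 on GRCh38, starting inside SERTAD4) had 0.312, 0.102 and 0.104 CPM in PRT3789 at 72 h, against 1.44, 1.64 and 1.496 CPM in DMSO. SERTAD4, a gene of the SERTA domain family, had 4.96, 5.51 and 5.88 CPM in PRT3789 against 30.6, 32.7 and 30.5 CPM in DMSO. The groups did not overlap for either gene, and the log2 fold changes were -3.11 ± 0.44 for the antisense RNA (SE; edgeR adjusted p = 1.72e-05) and -2.52 ± 0.12 for the sense gene (adjusted p = 1.98e-11). The PRT3789 values of SERTAD4-AS1 rest on 9, 3 and 3 counts.

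EPHA2 encodes a receptor tyrosine kinase for ephrins, and EPHA2-AS1 starts within 1000 bases of it with no exon in common (chr1:16155176-16158148, plus strand). EPHA2-AS1 had 0.486, 0.442 and 0.522 CPM in PRT3789 at 72 h, against 2.68, 2.99 and 2.89 CPM in DMSO. EPHA2 had 60.4, 54.9 and 53.7 CPM in PRT3789 against 221, 206 and 218 CPM in DMSO. Every PRT3789 library lay below every DMSO library at 6, 48 and 72 h for both genes. The sense gene was already 2.09-fold lower at 6 h (edgeR adjusted p = 6.72e-06), where the antisense RNA was at a log2 fold change of -0.56 ± 0.18 (SE) and did not pass (adjusted p = 0.108). By 72 h the log2 fold changes were -2.55 ± 0.21 for EPHA2-AS1 and -1.93 ± 0.11 for EPHA2 (edgeR adjusted p = 1.82e-08 and 1.85e-10).

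ELF3 encodes an ETS factor of epithelial cells. ELF3-AS1 (chr1:201995696-202010463, minus strand) had 1.92, 2.30 and 3.168 CPM in PRT3789 at 6 h, against 3.69, 4.98 and 7.14 CPM in DMSO. At 72 h it had 1.42, 1.60 and 1.32 CPM in PRT3789 against 3.41, 3.14 and 4.25 CPM in DMSO. The groups did not overlap at any time, and ELF3-AS1 fell by 1.09 ± 0.24 at 6 h, 1.38 ± 0.25 at 48 h and 1.31 ± 0.25 at 72 h on the log2 scale (SE; edgeR adjusted p = 0.0115, 0.000198 and 0.000403). ELF3 was 2.43-fold lower at 6 h, 1.67-fold at 48 h and 1.82-fold at 72 h, and its effect at 48 h was less negative than at 6 h (difference 0.54 ± 0.10, SE, edgeR adjusted p = 0.000985). The 6 h call of ELF3-AS1 ended without DMSO replicate 3 (7.14 CPM) or PRT3789 replicate 1 of that time, and with the 6 h libraries fitted alone, at adjusted p of 0.0706 to 0.230.

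JDP2-AS1 lies beside JDP2, a bZIP repressor of the AP-1 family, with the starts within 1000 bases. It had 4.96, 5.92 and 4.03 CPM in PRT3789 at 72 h, against 9.01, 8.97 and 6.35 CPM in DMSO, and the sense gene had 30.2, 27.7 and 32.3 CPM in PRT3789 against 66.4, 70.3 and 65.4 CPM in DMSO. The antisense RNA was 1.58-fold lower at 48 h and 1.63-fold at 72 h, and the sense gene 2.57-fold and 2.24-fold (edgeR adjusted p of 0.00173 and 0.00104 for JDP2-AS1). Its 6 h call (edgeR adjusted p = 0.042) ended in 17 of 27 alternatives, among them without any single 6 h library.

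GPC1-AS1 starts inside GPC1, the gene of the heparan sulphate proteoglycan glypican-1, and shares no exon with it. GPC1-AS1 had 1.67, 1.43 and 1.70 CPM in PRT3789 at 72 h, against 7.11, 6.99 and 6.38 CPM in DMSO. GPC1 had 62.5, 60.8 and 66.7 CPM in PRT3789 against 132, 134 and 136 CPM in DMSO. Neither overlapped between groups, with 4.26-fold lower GPC1-AS1 and 2.11-fold lower GPC1 (edgeR adjusted p = 2.3e-07 and 9.41e-09). GATA2-AS1 and GATA2, which encodes a zinc finger factor of blood and other progenitors, were each 2.4-fold lower at 48 h, and 1.7-fold and 1.61-fold lower at 72 h.

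ARHGEF26-AS1 and ARHGEF26, the gene of a guanine nucleotide exchange factor for small GTPases, have starts within 1000 bases on opposite strands. The antisense RNA had 0.711, 0.539 and 0.597 CPM in PRT3789 at 48 h, against 2.05, 3.10 and 3.78 CPM in DMSO. The sense gene had 9.32, 9.61 and 8.88 CPM in PRT3789 against 13.1, 10.6 and 11.7 CPM in DMSO. ARHGEF26-AS1 thus fell by 2.26 ± 0.24 and ARHGEF26 by 0.35 ± 0.13 on the log2 scale (SE; edgeR adjusted p = 5.8e-07 and 0.047), and the sense call at 48 h ended in 10 of 27 alternatives. At 72 h the antisense RNA was 2.58-fold lower and the sense gene 1.66-fold lower.

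Of the pairs that were higher together, GASK1B-AS1 and GASK1B had the most positive fold changes among the tested antisense RNAs and sense genes at 48 and 72 h. GASK1B-AS1 (chr4:158170752-158202877, plus strand) starts inside GASK1B, which encodes a Golgi-associated kinase-like protein. It had 4.06, 4.05 and 5.88 CPM in PRT3789 at 72 h, against 0.106, 0.299 and 0.0997 CPM in DMSO. GASK1B had 262, 287 and 245 CPM in PRT3789 against 6.20, 7.59 and 8.21 CPM in DMSO. The groups did not overlap for either, with log2 fold changes of 4.78 ± 0.37 for the antisense RNA and 5.17 ± 0.13 for the sense gene (SE; edgeR adjusted p = 9.41e-09 and 1.66e-14). At 6 h both overlapped between groups and neither passed. In DMSO the antisense level rests on 3, 8 and 3 counts at 72 h. GASK1B-AS1 had 0.309 CPM or less in every DMSO library and every 6 h library. It thus met the rule for members only through PRT3789 at 48 and 72 h.

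GASK1B-AS1 shares 1040 exon bases with GASK1B, and its counts came to 1.76% of those of GASK1B in PRT3789 and 2.29% in DMSO at 72 h. For scale, 68 pairs among all -AS1 symbols share at least 200 exon bases with a sense gene of at least 100 CPM. In 48 of these the antisense count was under 1% of the sense count, with a median of 0.211%, and 6 antisense RNAs had no count at all. How much reads assigned to the wrong strand add to GASK1B-AS1 was not tested.

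PSMB8-AS1 (chr6:32844078-32846500, plus strand) and PSMB8, which encodes a catalytic subunit of the immunoproteasome, have starts within 1000 bases. PSMB8-AS1 had 2.13, 2.40 and 2.72 CPM in PRT3789 at 48 h against 0.857, 1.44 and 1.18 CPM in DMSO. At 72 h it had 3.02, 4.56 and 2.57 CPM in PRT3789 against 1.13, 0.673 and 0.798 CPM in DMSO. The groups were apart at both times, and PSMB8-AS1 rose by 1.06 ± 0.31 at 48 h and 1.96 ± 0.32 at 72 h on the log2 scale (SE; edgeR adjusted p = 0.0112 and 6.69e-05). PSMB8 was 2.52-fold higher at 48 h and 3.2-fold at 72 h. The pair shares 602 exon bases, and the antisense counts came to 3.72% of the sense counts in PRT3789 and 3.04% in DMSO at 72 h.

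IRF1 encodes an interferon-responsive transcription factor. IRF1-AS1 had 4.06, 4.12 and 3.93 CPM in PRT3789 at 72 h, against 2.46, 2.06 and 2.46 CPM in DMSO, and IRF1 had 174, 171 and 170 CPM in PRT3789 against 51.8, 49.1 and 47.8 CPM in DMSO. The libraries did not overlap for either, and the log2 fold changes were 0.79 ± 0.29 for IRF1-AS1 and 1.79 ± 0.06 for IRF1 (SE; edgeR adjusted p = 0.0361 and 1.5e-13). Without any one of the 6 libraries of 72 h the call of IRF1-AS1 ended, at adjusted p of 0.0629 to 0.107. The pair shares 2805 exon bases, and the antisense counts came to 2.35% of the sense counts in PRT3789 and 4.69% in DMSO at 72 h. How much reads assigned to the wrong strand add to IRF1-AS1 was not tested.

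GATA3 encodes a zinc finger factor of lymphoid and luminal epithelial cells. GATA3-AS1 starts 1204 bases upstream of the start of the canonical GATA3 transcript and shares no exon with GATA3. It lies within the full annotated span of that gene. GATA3-AS1 had 1.63, 1.53 and 1.67 CPM in PRT3789 at 72 h, against 0.422, 0.262 and 0.133 CPM in DMSO. GATA3 had 61.7, 59.3 and 61.8 CPM in PRT3789 against 33.0, 33.1 and 35.9 CPM in DMSO. GATA3-AS1 was higher without overlap at every time, by 3.14-fold at 6 h, 3.64-fold at 48 h and 5.87-fold at 72 h, while GATA3 passed at 48 h (1.83-fold) and 72 h (1.79-fold). The 6 h call (edgeR adjusted p = 0.0313) ended without DMSO replicate 1 or 2 or PRT3789 replicate 1 or 3 of 6 h, at adjusted p of 0.056 to 0.149, and with the 6 h libraries fitted alone, at 0.381. GATA3-AS1 had 0.804 CPM or less in every DMSO library, so it met the rule for members only through PRT3789.

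THBS3-AS1 and THBS3, the gene of an extracellular thrombospondin, were 5.56-fold and 4.21-fold higher at 72 h. THBS3-AS1 had 2.98, 4.87 and 3.30 CPM in PRT3789 against 0.845, 0.374 and 0.764 CPM in DMSO, and it shares 1198 exon bases with the sense gene. THBS3-AS1 had 0.845 CPM or less in every DMSO library and every 6 h library. Like GASK1B-AS1, it met the rule for members only through PRT3789 at 48 and 72 h. ATP6V0E2-AS1, beside a gene of the vacuolar proton pump, had 22.5, 20.3 and 23.2 CPM in PRT3789 against 6.72, 7.62 and 5.88 CPM in DMSO at 72 h. ATP6V0E2-AS1 was 3.27-fold and ATP6V0E2 1.64-fold higher, with no overlap in either. LOXL1-AS1, beside a gene of elastic fibre cross-linking, was 3.32-fold and LOXL1 1.87-fold higher.

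The SVIL pair rose by unequal amounts. SVIL-AS1, the third most abundant member, had 92.3, 94.3 and 88.5 CPM in PRT3789 at 72 h, against 74.9, 70.5 and 78.0 CPM in DMSO. SVIL, the gene of the actin-binding protein supervillin, had 1218, 1251 and 1228 CPM in PRT3789 against 479, 538 and 556 CPM in DMSO. The groups were apart for both, at 1.23-fold for SVIL-AS1 and 2.35-fold for SVIL (edgeR adjusted p = 0.00107 and 1.97e-07).

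**Figure D3:**
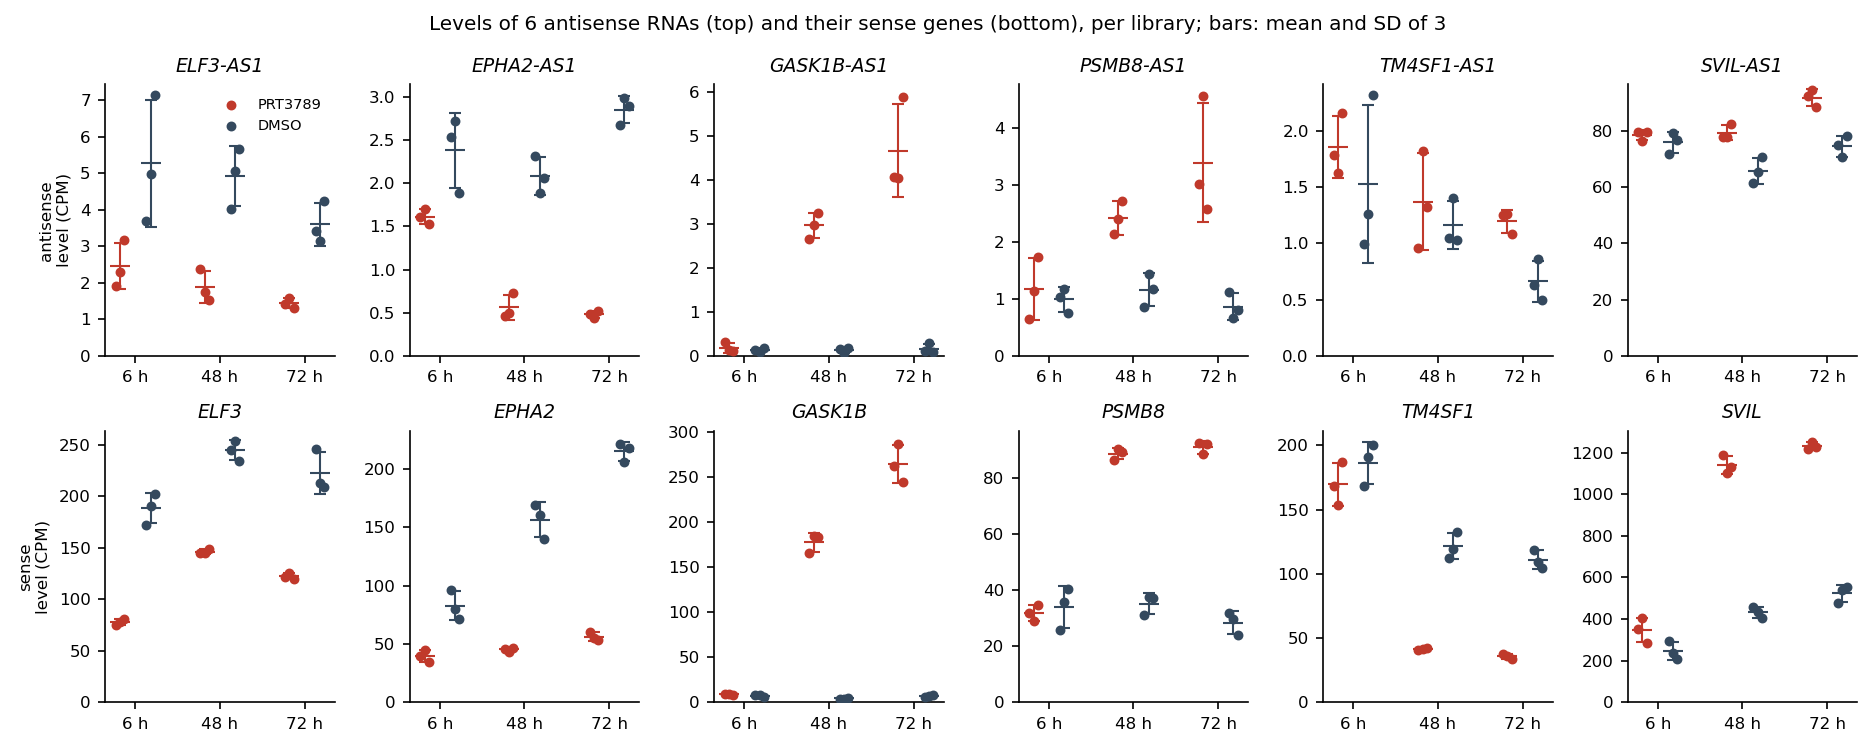
Level in CPM of 6 antisense RNAs (top row) and their sense genes (bottom row) in each library at 6, 48 and 72 h, PRT3789 in red and DMSO in dark blue; lines show the mean and SD of 3 libraries, and every axis starts at 0. ELF3 and EPHA2 pairs are lower and GASK1B and PSMB8 pairs higher in PRT3789 at 48 and 72 h, TM4SF1 is lower with TM4SF1-AS1 higher at 72 h, and SVIL rises more than SVIL-AS1.

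Other antisense RNAs moved while the sense gene did not pass. MRPS9-AS1, beside a gene of the mitochondrial ribosome, had 1.14, 1.04 and 0.862 CPM in PRT3789 at 48 h, against 2.80, 3.58 and 3.60 CPM in DMSO. MRPS9 had 29.9, 29.9 and 30.8 CPM in PRT3789 against 31.3, 33.6 and 36.1 CPM in DMSO. MRPS9-AS1 was 3.28-fold lower at 48 h and 3.12-fold at 72 h (edgeR adjusted p = 3.01e-07 and 7.41e-07), while MRPS9 had a log2 fold change of -0.16 ± 0.08 (SE) at both times and did not pass (adjusted p = 0.138 and 0.124), although its libraries did not overlap.

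MZF1-AS1, beside the zinc finger gene MZF1, had 2.36, 2.42 and 3.30 CPM in PRT3789 at 72 h, against 0.810, 0.523 and 0.632 CPM in DMSO. MZF1 had 8.81, 9.94 and 9.70 CPM in PRT3789 against 9.72, 9.46 and 10.8 CPM in DMSO. The antisense RNA was 4.08-fold higher with no overlap (edgeR adjusted p = 2.41e-05), and the sense gene overlapped between groups (log2 fold change -0.08 ± 0.10, SE, adjusted p = 0.585). ZFHX4-AS1, beside a zinc finger homeobox gene, was called with its sense gene at 48 h, at 2.87-fold for ZFHX4-AS1 and 1.88-fold for ZFHX4. At 72 h ZFHX4-AS1 was 4.18-fold higher, while ZFHX4 had a log2 fold change of 0.45 ± 0.23 and did not pass (SE, edgeR adjusted p = 0.129), although its libraries did not overlap. PRKAR2A-AS1, which shares its start region with a regulatory subunit gene of protein kinase A, was 2.98-fold higher at 48 h, while PRKAR2A had a log2 fold change of 0.06 ± 0.16 (SE). At 72 h PRKAR2A-AS1 had 1.22 to 1.46 CPM in PRT3789 and 0.822 to 1.06 CPM in DMSO and was not called.

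CBR3-AS1 and CLDN14-AS1 start past the ends of their sense genes on chromosome 21. CBR3-AS1, beside a carbonyl reductase gene, had 2.06, 1.94 and 2.02 CPM in PRT3789 at 6 h, against 4.02, 6.28 and 5.53 CPM in DMSO, and was 2.62-fold lower (edgeR adjusted p = 4.49e-05). CBR3 at 6 h had 2.61, 2.30 and 3.97 CPM in PRT3789 against 2.45, 3.43 and 3.55 CPM in DMSO, which overlap. At 48 h both were lower, by 2.29-fold for CBR3-AS1 and 2.15-fold for CBR3, and at 72 h CBR3 did not pass (log2 fold change -0.53 ± 0.25, SE, edgeR adjusted p = 0.1).

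CLDN14-AS1 had the most negative change of all members. It had 1.30, 1.41 and 1.08 CPM in PRT3789 at 6 h, against 2.61, 3.68 and 3.97 CPM in DMSO. At 72 h it had 0.0694, 0.0681 and 0.0696 CPM in PRT3789, which is 2 counts in each library, against 1.87, 1.94 and 1.46 CPM in DMSO. No time showed overlap, and the log2 fold changes were -1.43 ± 0.24 at 6 h, -4.28 ± 0.34 at 48 h and -4.58 ± 0.37 at 72 h (SE; edgeR adjusted p = 0.00113, 1.98e-08 and 1.95e-08). CLDN14, the gene of a tight junction claudin, did not pass the filter on low counts; it was listed at 0 in all 3 PRT3789 libraries of 72 h and at 0.141, 0.149 and 0.199 CPM in DMSO.

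In the pairs called in opposite directions under PRT3789 the antisense RNA was always the higher partner. Members as a whole were also called higher more often than lower, with 55 against 22 at 48 h and 64 against 20 at 72 h. Some antisense RNAs of these pairs, among them BHLHE40-AS1, also met the rule for members only through PRT3789 libraries, where they were high. What either point adds to the direction of these pairs was not tested. TM4SF1 encodes a membrane protein of the tetraspan family. TM4SF1-AS1 (chr3:149377778-149386583, plus strand, no shared exon) had 1.25, 1.26 and 1.08 CPM in PRT3789 at 72 h, against 0.634, 0.860 and 0.499 CPM in DMSO. TM4SF1 had 37.997, 35.8 and 34.0 CPM in PRT3789 against 119, 109 and 105 CPM in DMSO. The sense gene was 3.09-fold lower (edgeR adjusted p = 1.35e-10) and the antisense RNA 1.81-fold higher (adjusted p = 0.0417), each without overlap, and the antisense call ended in 7 of 27 alternatives at adjusted p of 0.051 to 0.149.

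BHLHE40-AS1 lies beside BHLHE40, the gene of a basic helix-loop-helix repressor. It had 1.74, 2.35 and 2.05 CPM in PRT3789 at 72 h, against 0.493, 0.747 and 0.897 CPM in DMSO, and BHLHE40 had 87.0, 93.2 and 84.4 CPM in PRT3789 against 125, 122 and 117 CPM in DMSO. The antisense RNA was 2.85-fold higher and the sense gene 1.38-fold lower (edgeR adjusted p = 2.33e-05 and 1.16e-05), with no overlap. At 48 h BHLHE40-AS1 was 4.18-fold higher and the sense gene overlapped between groups. BHLHE40-AS1 had 0.940 CPM or less in every DMSO library and every 6 h library. It too met the rule for members only through PRT3789 at 48 and 72 h.

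REPIN1-AS1 was 2.14-fold higher at 72 h and REPIN1 1.63-fold lower, and TBC1D8-AS1 was 1.78-fold higher and TBC1D8 1.68-fold lower. MYADM-AS1 was 3.34-fold higher and MYADM 1.49-fold lower at 72 h. In DMSO, MYADM-AS1 had 0.745 to 0.992 CPM at 48 h and 0.422 to 1.12 CPM at 72 h. At 6 h it had 0.709 CPM or less in every library, so it met the rule for members mainly through PRT3789 at 48 and 72 h. The call of MYADM ended without any single library of 72 h, and that of TBC1D8-AS1 ended without PRT3789 replicate 2 of 72 h (edgeR adjusted p = 0.0514). At 48 h, ALDH1A3-AS1 and PSMG3-AS1 were 1.62-fold and 1.58-fold higher and their sense genes 1.71-fold and 1.51-fold lower. The libraries of ALDH1A3 overlapped at 48 h and its call ended in 14 of 27 alternatives, and that of PSMG3 ended without DMSO replicate 3 of 48 h (adjusted p = 0.0532).

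CD63 encodes a tetraspanin of late endosomes, and CD63-AS1 starts 85 bases from its start. At 72 h CD63-AS1 averaged 9.01 ± 0.276 CPM in PRT3789 and 7.17 ± 0.439 CPM in DMSO, and CD63 averaged 294 ± 11.6 CPM in PRT3789 and 366 ± 16.0 CPM in DMSO (SD, n = 3 each). The libraries did not overlap for either at 48 or 72 h. The log2 fold changes of CD63-AS1 were 0.39 ± 0.11 at 48 h and 0.33 ± 0.11 at 72 h, and those of CD63 were -0.44 ± 0.08 and -0.32 ± 0.08 (SE).

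The AFAP1 pair was called in opposite directions at 48 h, and AFAP1-AS1 varied widely within a group. AFAP1-AS1 had 1.39, 1.41 and 2.45 CPM in PRT3789 at 48 h, against 0.261, 0.287 and 1.07 CPM in DMSO. At 72 h it had 0.555, 0.817 and 1.18 CPM in PRT3789 against 2.04, 0.972 and 0.0997 CPM in DMSO. The DMSO libraries of 72 h thus held 58, 26 and 3 counts, and the groups overlapped at 72 h but not at 48 h. The 48 h call of AFAP1-AS1 (log2 fold change 1.72 ± 0.66, SE, edgeR adjusted p = 0.045) ended in 17 of 27 alternatives, among them without any single PRT3789 library of 48 h. AFAP1, the gene of an actin filament-associated protein, was 3.33-fold lower at 48 h and 3.13-fold lower at 72 h.

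The count of opposite pairs depended on single libraries. The 48 h count of 4 was 2 without DMSO replicate 2 of 6 h, DMSO replicate 1 of 48 h, PRT3789 replicate 2 or 3 of 48 h, or PRT3789 replicate 2 of 72 h. The 72 h count of 7 was 3 without DMSO replicate 3 or PRT3789 replicate 2 of 72 h, and 4 without PRT3789 replicate 3 of 72 h. With each time fitted apart the counts were 9 at 48 h and 17 at 72 h.

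Several abundant or much studied antisense RNAs were not called at 72 h. FGD5-AS1 had 99.7, 106 and 101 CPM in PRT3789 at 72 h, against 96.8, 96.1 and 95.4 CPM in DMSO, and was not called (edgeR adjusted p = 0.187), while FGD5 was listed at 0 to 0.0747 CPM over all libraries. At 48 h FGD5-AS1 was called higher (log2 fold change 0.14, adjusted p = 0.0477), a call that ended in 22 of 27 alternatives. OIP5-AS1 had 81.1, 80.2 and 79.8 CPM in PRT3789 against 85.5, 83.9 and 99.6 CPM in DMSO and was not called (adjusted p = 0.228), while OIP5 was 1.71-fold lower. WAC-AS1 (log2 fold change 0.16 ± 0.08, SE), OTUD6B-AS1 (0.14 ± 0.19) and ZEB1-AS1 (0.12 ± 0.11) did not pass at 72 h either. SMARCA5-AS1, beside the gene of the ISWI remodelling ATPase, had 3.68, 2.69 and 2.85 CPM in PRT3789 and 3.27, 3.06 and 4.85 CPM in DMSO at 72 h, which overlap. TP73-AS1 was 1.49-fold lower at 72 h (edgeR adjusted p = 0.0208), a call that ended with no filter and without DMSO or PRT3789 replicate 1 of 72 h at adjusted p of 0.0576 to 0.0864, and TP73, of the p53 family, overlapped between groups.

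The position of the antisense RNA relative to its gene was read from GENCODE 44 for 236 members. Starts are those of the canonical transcripts. They lay within 1000 bases on opposite strands for 106 members (shared start), the antisense RNA started inside the sense gene for 44, past its end for 71 and farther upstream for 15. At 72 h, 27 of the 106 shared-start members were higher (25.5%) and 8 lower (7.55%), as were 12 (27.3%) and 5 (11.4%) of the 44 internal ones. Of the 71 beyond the end 18 were higher (25.4%) and 5 lower (7.04%), and of the 15 upstream ones 5 (33.3%) and 2 (13.3%). Apart from the small upstream class, these shares lie near the 26.6% and 8.3% of all members, beside 21.3% and 22% of all tested genes. Among shared-start pairs 18 of 106 were called in the same direction and 5 in opposite directions at 72 h, and 19 and 2 at 48 h. Among 1264 other gene pairs with starts within the same distance, 143 were called in the same direction and 42 in opposite directions at 72 h. At 48 h these counts were 133 and 40. The share called in the same direction was larger among the antisense pairs at both times, a difference that was not tested. Signs matched in 54.7% of the shared-start antisense pairs and in 60.4% of the other pairs at 72 h, and in 58.5% and 55.9% at 48 h. The order of the shares with matching signs thus differed between times. Of 167 tested pairs with shared exon bases 22 were called in the same direction at 72 h (13.2%), and of 50 without 13 were (26%), a difference that was not tested. Calls of every kind were more frequent among the 50 at 72 h. The antisense RNA was called in 53 of the 167 and 22 of the 50, the sense gene in 71 and 26, and opposite directions in 4 and 3. At 48 h the same-direction shares were 13.8% and 20%, with 4 and 0 opposite pairs.

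In the DMSO libraries, antisense RNAs also changed between times. Against 6 h, 38 members were higher at 48 h (15.8%, beside 17.1% of all tested genes) and 24 were lower (9.96%, beside 20.1%), where 37.2% of all genes were called. Of the 222 pairs, 12 were called in the same direction and 9 in opposite directions. Among these 9 the antisense RNA was the higher partner in 4 and the lower in 5. JDP2-AS1 and ARHGAP5-AS1 were among those higher in DMSO at 48 h, by 0.81 and 0.76 on the log2 scale. Between 72 and 48 h in DMSO, edgeR called 0 members, beside 0.54% of all genes (0.387% higher, 0.153% lower), with 43 members at an unadjusted p under 0.05 (17.8%, beside 19.8% of all genes). DESeq2 called 6 members (2.49%, beside 3.32% of all genes) and limma-voom 0. The edgeR count was 4 without DMSO replicate 1 of 6 h, and 1 without DMSO replicate 3 or PRT3789 replicate 3 of 6 h. The median log2 fold change of the members was nevertheless -0.19, with 61 of 241 above 0, beside a median of 0.01 for all genes. The 72 h treatment comparison uses the same DMSO libraries of 72 h as this one.

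Summed levels also set the DMSO libraries of 72 h apart. The 241 antisense RNAs together averaged 1429 ± 130 CPM in PRT3789 and 1468 ± 169 CPM in DMSO at 6 h, 1541 ± 20.5 CPM in PRT3789 and 1439 ± 64.4 CPM in DMSO at 48 h, and 1515 ± 26.8 CPM in PRT3789 and 1293 ± 18.4 CPM in DMSO at 72 h (SD, n = 3 each). The groups overlapped at 6 h and were apart at 48 and 72 h. The DMSO libraries of 72 h were the lowest of the late ones. Without the 5 most abundant members the 72 h sums were 1130 ± 24.2 CPM in PRT3789 and 934 ± 25.8 CPM in DMSO.

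**Figure D4:**
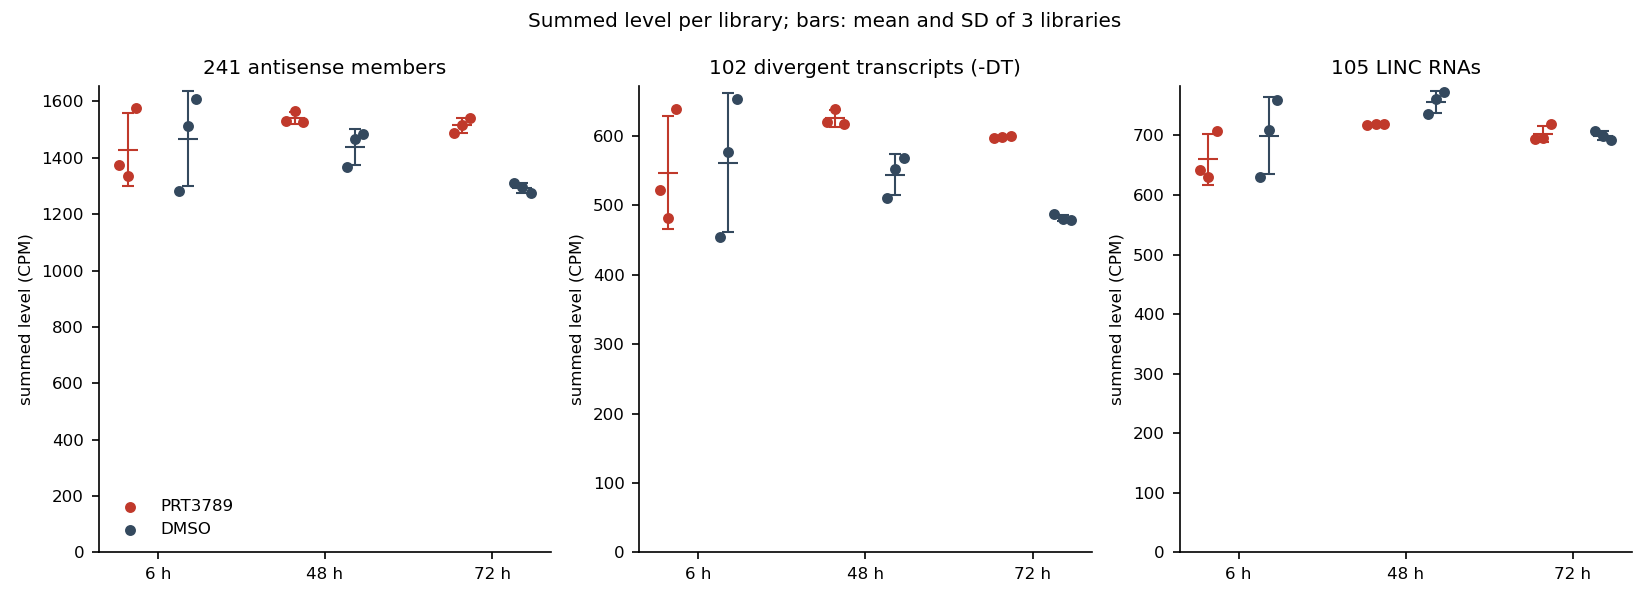
Summed level in CPM per library of the 241 antisense members, of 102 divergent transcripts and of 105 LINC RNAs, by time, PRT3789 in red and DMSO in dark blue; lines show the mean and SD of 3 libraries and axes start at 0. At 72 h the antisense sums average 1515 CPM in PRT3789 and 1293 CPM in DMSO, and the LINC sums 702 and 699 CPM.

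Other non-coding classes of at least 1 CPM were set beside the antisense RNAs, where 23.2% of all genes of that level were higher and 23.7% lower at 72 h. Of 102 divergent transcripts (symbols ending in -DT, which start beside a gene and run away from it), 31 were higher (30.4%) and 11 lower (10.8%) in PRT3789 at 72 h, with a median log2 fold change of 0.19, and their sums were 598 ± 1.13 CPM in PRT3789 and 482 ± 4.61 CPM in DMSO. In DMSO between 72 and 48 h their median was -0.19, as for the antisense RNAs. Of 105 LINC RNAs, 24 were higher (22.9%) and 20 lower (19%) at 72 h, with sums of 702 ± 14.2 CPM in PRT3789 and 699 ± 7.64 CPM in DMSO. Of 18 other antisense symbols, 6 were higher and 2 lower. No class was tested against another.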

How the data were processed

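Gene-level expected counts of 18 libraries, as deposited by the authors, were used; their values were already whole numbers. Per the series' design text and the submitters' processing notes, the authors ran nf-core/rnaseq 3.17.0 with automatic strand detection, Trim Galore, STAR on GRCh38 and RSEM; versions of the single tools are not given in the sources used here. The members and lists were chosen with earlier results of these data known. Genes were kept by edgeR's filterByExpr, scaled by TMM and fitted with one mean per group over all 18 libraries (edgeR 4.0.16, robust quasi-likelihood test, two-sided, Benjamini-Hochberg over 16291 genes, R 4.3.3). Printed CPM of single libraries and of groups use library totals scaled by TMM. The rule for members, the mean levels over the 18 libraries and the CPM per kb use plain library totals. The fit was tested on simulated data. Reads carry no molecular identifiers, so depth covers counting error only.

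Members were named by rule: the 8 called members with the largest positive and the 8 with the largest negative change at 48 and at 72 h, up to 4 each way at 6 h, up to 8 from opposite pairs, the 5 most abundant, and a list of much studied antisense RNAs. Alternatives were other scalings and filters, DESeq2 1.42.0, limma-voom (limma 3.58.1), replicate blocks, each time fitted apart, and each library left out. Pair positions came from GENCODE 44 and promoter windows from RefSeq. Some genes are not reported here.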

Additional observations from a re-analysis of the deposited data

Results flagged for a closer look

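Between 48 and 6 h the PRT3789 effect (log2 fold change at 48 h minus that at 6 h, edgeR interaction test at a Benjamini-Hochberg adjusted p under 0.05) differed for 15 of the 37 named antisense RNAs and for 17 of the 35 tested sense genes. Most of the named antisense RNAs were chosen for large changes at 48 or 72 h; over all members the count was 29 of 241 (12%), and 19.2% of all tested genes were called.

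More negative at 48 h were CLDN14-AS1 (-2.85), SERTAD4-AS1 (-2.21), ARHGEF26-AS1 (-1.51), MRPS9-AS1 (-1.51), EPHA2-AS1 (-1.30), GPC1-AS1 (-1.17) and GATA2-AS1 (-1.04). Among sense genes these were SERTAD4 (-1.48), TM4SF1 (-1.41), CBR3 (-1.02), GATA2 (-0.96), GPC1 (-0.92), AFAP1 (-0.78), OIP5 (-0.74), EPHA2 (-0.72), REPIN1 (-0.46) and JDP2 (-0.37). TM4SF1, AFAP1, OIP5, REPIN1, CBR3 and JDP2 are in this list without their antisense RNA.

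More positive at 48 h were GASK1B-AS1 (3.98), THBS3-AS1 (2.58), LOXL1-AS1 (1.56), BHLHE40-AS1 (1.54), ATP6V0E2-AS1 (1.16), PRKAR2A-AS1 (1.10), ZFHX4-AS1 (1.09) and PSMG3-AS1 (0.81). Among sense genes these were GASK1B (5.04), THBS3 (1.57), IRF1 (1.46), PSMB8 (1.43), SVIL (0.90), ELF3 (0.54) and ATP6V0E2 (0.32). For ELF3 the effect stayed negative and was smaller at 48 h than at 6 h.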

How the results depend on the processing

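No call of a named gene reversed its direction under the alternatives, which were run for named genes only at the times when they were called: of 3240 such values, 3064 kept direction and call and 176 kept direction without passing. Of 496 counts, 421 were within 1.5 times the reported one. Named antisense RNAs called under every alternative were 2 of 6 at 6 h, 24 of 27 at 48 h and 25 of 29 at 72 h. The cause of each change below was not tested, apart from stricter thresholds, which by construction leave fewer calls.

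Leaving out one library gave, at 6 h, 0 to 3 members higher, 2 to 5 lower, 0 to 3 same-direction and 0 to 0 opposite pairs. At 48 h it gave 39 to 56 higher, 15 to 25 lower, 23 to 38 same-direction and 2 to 5 opposite pairs, and at 72 h 54 to 70, 17 to 23, 28 to 44 and 3 to 9. Members with a changed effect numbered 22 to 32 for 48 against 6 h and 0 to 0 for 72 against 48 h, and in DMSO 43 to 76 were called at 48 against 6 h and 0 to 4 at 72 against 48 h.

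Replicate numbers did not pair the libraries at every time. Over 9 pairs of one number and time, the correlation of deviations from group means across 11059 genes ran from -0.491 to 0.813. At 6 h it was 0.483, -0.491 and 0.813 for replicates 1, 2 and 3, and at 48 and 72 h it ran from -0.170 to 0.340. Not every library correlated best with its own number. Whether libraries of one number share a batch at 6 h was not tested. A replicate block over all groups gave 52 higher and 23 lower at 48 h, 67 and 20 at 72 h, 2 opposite pairs at 48 h and 1 call in DMSO at 72 against 48 h. A block within each time gave 1 higher at 6 h and 28 calls in DMSO at 48 against 6 h.

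Scaling by total counts gave 4 higher at 6 h. With no filter, opposite pairs were 2 at 48 h and 4 at 72 h, and 1 member was called in DMSO at 72 against 48 h. DESeq2 called 1 changed effect for 72 against 48 h and 6 members in DMSO at 72 against 48 h, and limma-voom gave 1 same-direction pair at 6 h. Each time fitted apart gave, at 6 h, 0 higher, 2 lower and 0 same-direction pairs, and 9 opposite pairs at 48 h and 17 at 72 h.

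At an adjusted p under 0.01 there were 0 higher, 2 lower and 0 same-direction pairs at 6 h, 31, 13 and 20 with 1 opposite pair at 48 h, 3 opposite pairs at 72 h, 16 changed effects for 48 against 6 h and 33 calls in DMSO at 48 against 6 h. With at least 2-fold, 1 was higher with 1 same-direction pair at 6 h, 17 higher and 10 lower with 8 same-direction and 1 opposite pair at 48 h, and 23 higher and 9 lower with 7 same-direction and 0 opposite pairs at 72 h, with 17 changed effects and 12 DMSO calls. For members of at least 2 CPM, 1 was higher at 6 h, 33 higher and 13 lower with 19 same-direction pairs at 48 h, and 40 higher and 13 lower with 22 same-direction and 3 opposite pairs at 72 h, with 16 changed effects.

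A median of 73 counts per member and library limits what could be called among scarce antisense RNAs, and libraries spread more at 6 h than later.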

Other observations

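Further pairs called together at 72 h are given here, chosen after their values were seen. NR2F1-AS1 averaged 9.13 ± 0.358 CPM in PRT3789 and 3.87 ± 0.126 CPM in DMSO at 72 h (SD, n = 3 each), and NR2F1, the gene of the nuclear receptor COUP-TF1, averaged 26.6 ± 2.24 CPM in PRT3789 and 11.98 ± 1.02 CPM in DMSO. MAP3K14-AS1, beside the gene of the kinase NIK, averaged 10.9 ± 1.03 CPM in PRT3789 and 3.96 ± 0.586 CPM in DMSO, and MAP3K14 averaged 184 ± 6.34 CPM in PRT3789 and 105 ± 3.09 CPM in DMSO. Among pairs called lower together, DEPDC1-AS1 averaged 0.759 ± 0.00912 CPM in PRT3789 and 1.58 ± 0.385 CPM in DMSO, beside 76.4 ± 6.74 CPM in PRT3789 and 150 ± 4.47 CPM in DMSO for DEPDC1.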
